A study of Mus musculus with 12 samples.

Results

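The first steps of splicing mark where an intron ends. U2AF, a heterodimer of a large subunit (U2af2) that binds the polypyrimidine tract and a small subunit (U2af1) that reads the AG at the 3′ splice site, recruits the U2 snRNP, while SF1 holds the branch point until the SF3a and SF3b complexes of the U2 snRNP take its place. Several related proteins carry a U2AF homology motif, a fold that binds short peptides in SF1 and SF3b1, and the helicase DHX15 can take U2 off the intron again. The mRNAs of 10 such factors were followed here in macrophages with lowered SF3a1: the U2AF subunits U2af1 and U2af2 and the small subunit paralog U2af1l4, the branch point binding protein Sf1, the U2AF homology motif proteins Puf60, Rbm39, Rbm17 and Htatsf1, and the helicase Dhx15 with its G-patch partner Sugp1. They were taken by name from a table of 38215 genes, where all 10 were found and passed the filter on low counts. Their units have 310 of 354841 exon bins, of which 92 are in the unit that U2af1l4 shares with a second gene, Gm49396. An exon bin is a stretch of exon that the same annotated transcripts share.

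RAW264.7 is a macrophage line from BALB/c mice, and every culture was 1 of 3 replicates of its group. Cells had a nontargeting siRNA or SF3a1 siRNA for 24 h, and then either 4 h with LPS at 20 ng/ml (control siRNA + LPS and SF3a1 siRNA + LPS) or the same time without it (control siRNA and SF3a1 siRNA). LPS is the bacterial lipopolysaccharide that activates TLR4. All groups were transfected by nucleofection, so none shows untransfected cells. PolyA RNA was sequenced, and the libraries held 12746019 to 41091887 reads counted in genes. Gene levels are CPM (a gene's reads relative to all counted reads of its library, scaled with the TMM method of edgeR). Bin usage is the percent of a gene's bin counts that fall in 1 bin, and it was available in 11 libraries, since control siRNA + LPS replicate 3 was not analysed at the bin level. A gene or bin was called at an adjusted p of 0.1 or less in edgeR's quasi-likelihood test (Benjamini-Hochberg over all genes or all bins tested), the rate that the study used.

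Sf3a1, the target of the siRNA, had 173, 216 and 185 CPM with control siRNA and 27.1, 27.5 and 32.1 CPM with SF3a1 siRNA. With LPS it had 150.0, 194 and 157 CPM with control siRNA and 30.3, 26.7 and 45.05 CPM with SF3a1 siRNA. Every SF3a1 siRNA library was below every control siRNA library, with a fold change of 6.62 without LPS (log2 fold change -2.73 ± 0.20 SE, adjusted p = 1.1e-05, edgeR) and 4.91 with LPS (log2 -2.30 ± 0.20, adjusted p = 1.5e-05, edgeR). The 10 macrophage markers summed to 10740 to 15760 CPM, with Lyz2 the most abundant in every library. The markers of T cells, B cells, fibroblasts, epithelium and endothelium summed to at most 0.183, 0.706, 0.271, 0.220 and 1.45 CPM.

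Sequences carry 3 of the splicing results. U2af1 has a pair of exons of 67 nt, and each of its 2 annotated transcripts holds 1 of them. On the minus strand of mm10, bin 006 (chr17:31651646-31651712) is in transcript ENSMUST00000014684 and bin 007 (chr17:31652502-31652568) is in ENSMUST00000166526, both coding. The exons share 44 of 67 bases (65.7%), and the capitals mark the 23 that differ. The files have 9 bins for U2af1 where 10 were rebuilt from GENCODE vM21, and the number matched once 2 alternate transcript starts in the last numbered bin, 009, were merged.
U2af1 bin 006: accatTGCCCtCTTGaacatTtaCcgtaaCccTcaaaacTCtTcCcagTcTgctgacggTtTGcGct
U2af1 bin 007: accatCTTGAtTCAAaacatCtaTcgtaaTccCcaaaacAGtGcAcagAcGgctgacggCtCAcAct

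Rbm39 bin 052 (chr2:156178880-156178952, minus strand, 73 nt) is an internal exon that coding transcripts of the gene leave out. It is present in 4 transcripts annotated as targets of nonsense-mediated decay (NMD) and in 3 retained intron transcripts. Read in frame, it meets a stop codon (capitals) after 69 bases, so it is shown as an exon that ends the reading frame.
Rbm39 bin 052: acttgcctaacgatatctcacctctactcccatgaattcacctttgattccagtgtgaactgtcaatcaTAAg

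U2af2 bin 007 may be the rare exon of 64 nt at chr7:5068733-5068796 (plus strand). Its place is less certain than that of the others, because 17 bins could be rebuilt and the files have 18, a difference that no merging removed. The transcript with this exon, ENSMUST00000207498, has a higher number than those used to rebuild the bins. Bin 007 was thus placed only by its order and low counts, and was not shown to be this exon. In that annotated NMD transcript, splicing the exon before it (its last 27 bases, chr7:5068157-5068183) to this exon makes a stop codon at once, shown in capitals (chr7:5068733-5068735).
U2af2 junction: ggcaacatcccttttggcattactgagTGA

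With control siRNA and no LPS, U2af2 was the most abundant of the 10 per length of exon, at 154 ± 14.8 CPM per kb (SD, n = 3). Dhx15 (118 ± 14.3) and Puf60 (101.5 ± 5.58 CPM per kb) followed, and their ranges overlapped. Sf1 had 56.3 ± 3.58 CPM per kb, and Rbm17 (36.1 ± 5.54) and Rbm39 (30.4 ± 1.17 CPM per kb) again overlapped. The small subunit U2af1 stood at 24.6 ± 0.872 CPM per kb, far under its partner U2af2, and its paralog U2af1l4 at 21.8 ± 1.14. Sugp1 (16.6 ± 1.06 CPM per kb) and Htatsf1 (11.5 ± 1.10 CPM per kb) had the lowest levels, and no neighbours in the order overlapped other than the pairs named. The exon lengths behind these values are the union of all annotated exons, which lowers the value of genes with many retained intron transcripts.

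**Figure D1:**
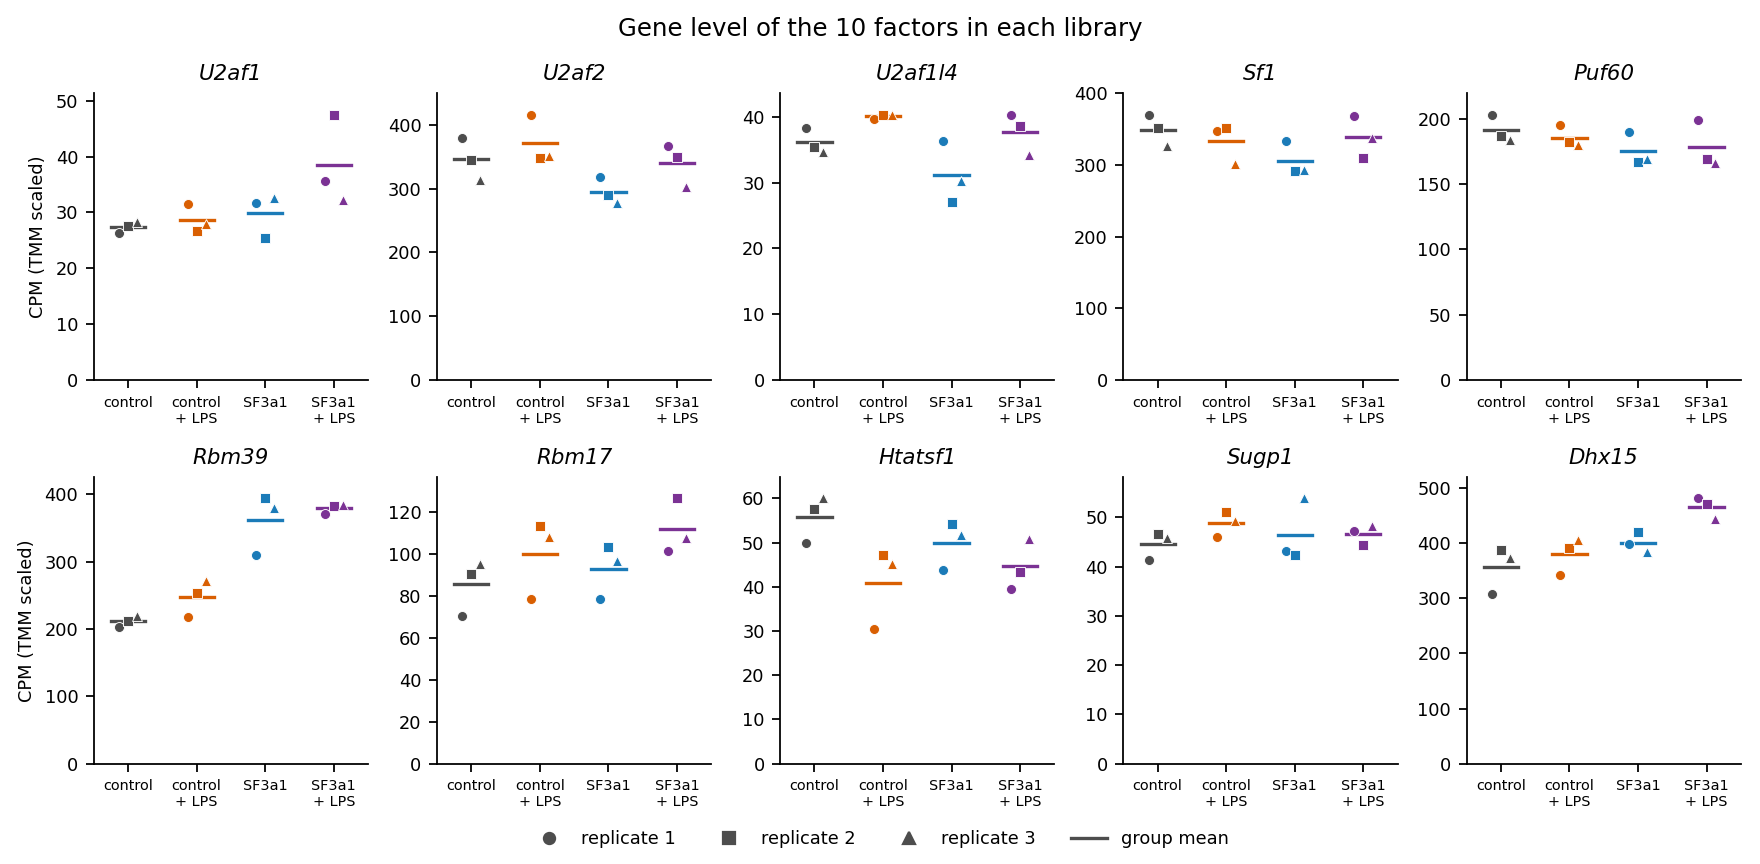
Level of each factor (CPM, TMM scaled, linear axes from 0) in the 12 libraries by group, with replicates as symbols and the group mean as a bar. In the Rbm39 panel all SF3a1 siRNA libraries, at 310.4 CPM or more, lie above all control siRNA libraries, at 272 CPM or less, and the groups of most other factors overlap.

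Does lowering SF3a1 change the mRNA of the factors that work beside it? Without LPS, Rbm39 rose and was the 1 of 10 factors called, against 33.8% of all 14983 genes tested (13.7% called higher and 20.1% called lower). With LPS, Rbm39 and U2af1 were called higher, 2 of 10 against 38.8% of all genes (18.4% higher and 20.4% lower). The share of called factors was below that of genes at large in both comparisons, a difference that was not tested. No factor was called lower without a replicate block, and with it U2af2 was, without LPS (log2 -0.23, adjusted p = 0.0810, edgeR). The median log2 fold change of the 10 was -0.03 without LPS and 0.08 with LPS, beside -0.02 and -0.04 over all genes.

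Rbm39, a serine and arginine rich coactivator of splicing related to U2af2, had 203, 211 and 219 CPM with control siRNA and 310.4, 394 and 379 CPM with SF3a1 siRNA. With LPS it had 218, 254 and 272 CPM with control siRNA and 371, 382 and 384 CPM with SF3a1 siRNA. All 6 SF3a1 siRNA libraries were above all 6 control siRNA libraries. The fold change was 1.71 without LPS (log2 0.77 ± 0.13 SE, adjusted p = 0.00108, edgeR) and 1.53 with LPS (log2 0.61 ± 0.13, adjusted p = 0.00392, edgeR). The replicate 1 libraries came from 2 sequencing runs and the others from 1. In replicates 2 and 3 alone the log2 fold changes of Rbm39 were 0.85 and 0.54 (adjusted p = 0.000455 and 0.00563, edgeR).

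U2af1, the small U2AF subunit, had 31.5, 26.6 and 27.9 CPM with control siRNA + LPS and 35.6, 47.5 and 32.3 CPM with SF3a1 siRNA + LPS. The groups did not overlap, but replicate 2 of SF3a1 siRNA + LPS stood well above the rest. The fold change was 1.34 (log2 0.42 ± 0.17 SE, adjusted p = 0.0764, edgeR), and without that library it was log2 0.24 (adjusted p = 0.281, edgeR), no longer called. It was also lost without control siRNA + LPS replicate 2 or 3 (adjusted p = 0.203 and 0.164, edgeR), with no filter (0.211) and with only the groups compared (0.139). Without LPS, U2af1 had 26.4, 27.5 and 28.3 CPM with control siRNA and 31.6, 25.4 and 32.7 CPM with SF3a1 siRNA, which overlap (log2 0.13 ± 0.17, adjusted p = 0.642, edgeR). The difference between both SF3a1 effects on U2af1 was log2 0.29 ± 0.24 (adjusted p = 0.730, edgeR interaction), so a difference with LPS was not shown.

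U2af2, the large subunit, had 380.1, 345 and 314 CPM with control siRNA and 318, 290.5 and 277 CPM with SF3a1 siRNA. The groups overlapped slightly, and the log2 fold change of -0.23 ± 0.14 SE was not called (adjusted p = 0.245, edgeR). With the replicate number as a block it was called, at the same log2 of -0.23 (adjusted p = 0.0810, edgeR). With LPS the log2 fold change of U2af2 was -0.13 ± 0.14 (adjusted p = 0.527, edgeR). The estimates of the 2 U2AF subunits had opposite signs in both comparisons, and U2af1 with LPS was the 1 called without the block.

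Dhx15, the DEAH-box helicase, had 343, 390.3 and 405 CPM with control siRNA + LPS and 482, 471.5 and 444 CPM with SF3a1 siRNA + LPS. These groups did not overlap, and the log2 fold change of 0.30 ± 0.13 SE (1.23-fold, adjusted p = 0.103, edgeR) missed the threshold. It passed with the replicate block (log2 0.30, adjusted p = 0.0433, edgeR) and in DESeq2 (log2 0.31, adjusted p = 0.0599). Without LPS, Dhx15 had 307, 388 and 373 CPM with control siRNA and 398, 420.5 and 384 CPM with SF3a1 siRNA, with overlap (log2 0.17 ± 0.13, adjusted p = 0.375, edgeR). Sugp1, the G-patch protein that activates this helicase, was at 42.3 to 53.9 CPM with SF3a1 siRNA and at 41.3 to 46.6 CPM with control siRNA (log2 0.06 ± 0.13, adjusted p = 0.794, edgeR).

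Sf1, the small subunit paralog U2af1l4 and the other U2AF homology motif proteins were not called for SF3a1 siRNA without or with LPS. Sf1 ranged over 326 to 370.4 CPM with control siRNA and 292 to 334 CPM with SF3a1 siRNA (log2 -0.19 ± 0.13 SE, adjusted p = 0.309, edgeR). Puf60, a U2af2 relative that also binds polypyrimidine tracts, was at 183 to 203 and 166 to 189 CPM (log2 -0.13 ± 0.12, adjusted p = 0.503, edgeR). For U2af1l4 the ranges were 34.7 to 38.3 and 27.03 to 36.4 CPM (log2 -0.21 ± 0.14, adjusted p = 0.305, edgeR). Each of these ranges overlapped between the siRNAs. With LPS the log2 fold changes were 0.02 for Sf1, -0.06 for Puf60 and -0.09 for U2af1l4, each with adjusted p above 0.6. Rbm17, which takes part in recognition of alternative 3′ splice sites, and Htatsf1, which binds SF3b1 within the U2 snRNP, had log2 fold changes of 0.12 ± 0.18 and -0.16 ± 0.18 without LPS and 0.16 ± 0.18 and 0.13 ± 0.18 with LPS.

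**Figure D2:**
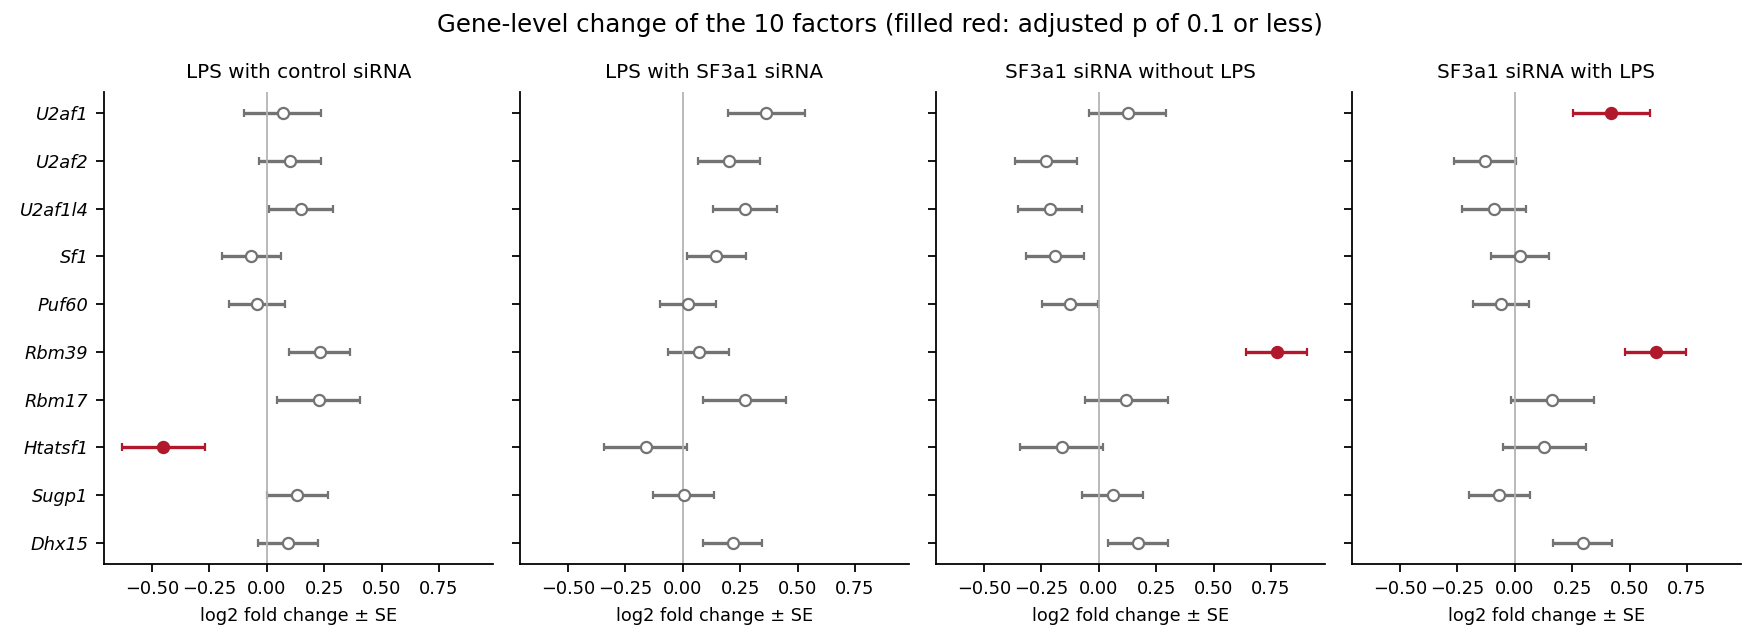
Log2 fold change of each factor with its standard error (horizontal axis) in the 4 comparisons, with called factors in filled red. Rbm39 is the largest change with SF3a1 siRNA, at 0.77 without LPS and 0.61 with LPS, and Htatsf1 is the lowest point with LPS under control siRNA, at -0.45.

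Do the factors respond to LPS itself? With control siRNA, 1 of 10 was called, Htatsf1, against 32.1% of all genes (13.8% higher and 18.3% lower). Htatsf1 had 49.8, 57.6 and 60.1 CPM without LPS and 30.4, 47.2 and 45.1 CPM with LPS. The groups did not overlap, and control siRNA + LPS replicate 1 was far below the others. The fold change was 1.37 lower (log2 -0.45 ± 0.18 SE, adjusted p = 0.0884, edgeR), and it was log2 -0.28 without that library (adjusted p = 0.259, edgeR), -0.42 without control siRNA replicate 2 (0.195) and -0.38 without replicate 3 (0.239). Leaving out SF3a1 siRNA replicate 2 or 3, which enter only the estimate of the spread, also ended the call (adjusted p = 0.114 and 0.115, edgeR). With the replicate block it was called at log2 -0.47 (adjusted p = 0.00837, edgeR). It was not called in DESeq2 (adjusted p = 0.105), nor in edgeR with RLE scaling (0.103), no filter (0.113) or only the groups compared (0.202).

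With SF3a1 siRNA, LPS called 0 of 10 factors in edgeR, against 10.7% of all genes (6.60% higher and 4.06% lower), and 0 had an unadjusted p under 0.05 or a call in DESeq2. Htatsf1 had 43.75, 54.3 and 51.7 CPM without LPS and 39.5, 43.5 and 50.9 CPM with LPS there, which overlap (log2 -0.16 ± 0.18, adjusted p = 0.744, edgeR). The median log2 fold change of the 10 with LPS was 0.10 with control siRNA and 0.17 with SF3a1 siRNA, beside -0.02 and 0.01 over all genes. U2af1l4 with control siRNA went from 34.7 to 38.3 CPM up to 39.7 to 40.3 CPM without overlap, yet its log2 of 0.15 ± 0.14 was not called (adjusted p = 0.508, edgeR). The test of whether the SF3a1 effect differed with LPS called 0 of 10 factors, against 3.47% of all genes, with 0 at an unadjusted p under 0.05 and 0 called in DESeq2. The comparisons share samples in pairs, so they are not independent of each other.

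The other genes of early spliceosome assembly give the setting. Of 35 listed besides Sf3a1, 34 were tested, and SF3a1 siRNA called 6 higher and 10 lower without LPS (47.1%, against 33.8% of all genes) and 5 higher and 10 lower with LPS (44.1%, against 38.8%). Without LPS, Sf3b1 (log2 0.84 ± 0.13 SE), the branch point binding subunit of SF3b, its partner Sf3b4 (0.62 ± 0.14), the helicase Ddx46 (0.68 ± 0.17) and Rbm25 (0.52 ± 0.14) led those that rose. The helicases Ddx42 (-1.50 ± 0.13), Ddx39 (-1.47 ± 0.18) and Ddx39b (-1.16 ± 0.17), the last of which works with U2AF, and the regulator Rbm5 (-1.12 ± 0.15) led those that fell. With LPS the same 4 led those that fell, with Ddx42 at -1.42 ± 0.13, and Luc7l (0.69 ± 0.12), a U1-associated protein, joined Sf3b4, Sf3b1 and Ddx46 among those that rose. LPS called 4 higher and 1 lower with control siRNA (14.7%, against 32.1% of all genes), with Zrsr1, a U2AF small subunit relative, at log2 1.24 ± 0.34 and Sf3b4 at 0.46 ± 0.14. Zrsr1 was at a low level, 1.65 to 2.73 CPM with control siRNA and 3.18 to 7.47 CPM with control siRNA + LPS. LPS called 3 higher and 0 lower with SF3a1 siRNA (8.82%, against 10.7%), and the interaction called 0, against 3.47%.

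Among the 44 other genes compared, Rbm39 was most alike in pattern to Sf3b1 (Pearson r of log2 CPM = 0.95 over 12 libraries) and Rbm25 (0.903). U2af2 was most alike to Snrpa, a U1 snRNP protein (r = 0.902), and to U2af1l4 (0.818), U2af1l4 likewise to U2af2 (0.818) and Snrpa (0.742), and Rbm17 to Snrpb2 and Snrpa1, both U2 snRNP proteins (0.958 and 0.928). U2af1 was closest to Luc7l (0.801) and Sf3b4 (0.767). Sf1 and Puf60 stood near each other (0.791) and near Tfip11 (0.711 and 0.834). Htatsf1 was closest to Sugp2 (0.701) and Sf3a3 (0.676), and Dhx15 to Rbm39 (0.785) and Rbm17 (0.778). Sugp1 had no close neighbour, with 0.427 to Snrpb2 and 0.425 to Smndc1. These are descriptions over libraries that share groups and depth, given without a test.

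Exon usage was the second readout. Of the 310 bins, 249 were tested, among 153624 bins in 10609 genes. The 249 include 56 bins of the unit that U2af1l4 shares with Gm49396, so the shares below include bins of that gene. SF3a1 siRNA changed the use of 4 bins without LPS (1.61% of those tested, against 0.626% of all bins). With LPS it changed 5 bins (2.01%, against 0.492%), and together these make 8 different bins in U2af1, U2af2, U2af1l4, Sf1 and Rbm39. With the replicate number as a block these counts were 8 and 7, while calls over all bins rose to 2113 and 1793. Leaving out 1 library gave 3 to 4 called bins without LPS and 0 to 6 with LPS. Puf60, Rbm17, Htatsf1, Sugp1 and Dhx15 had no bin among the 8 different bins, though Htatsf1 bin 005 was called with the block without LPS. In Dhx15 and Puf60 every bin stayed within a log2 usage change of 0.41 in both comparisons. Bins of 1 gene share their reads' source, so the 8 different bins are not 8 independent events. On simulated counts the bin test called unchanged bins well above its nominal rate, so a bin called near the threshold is uncertain. Reads outside annotated genes made up 18.2 to 27.2% of each SF3a1 siRNA library and 17.8 to 19.8% of each control library, and their part in the usage of intronic bins was not tested.

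**Figure D3:**
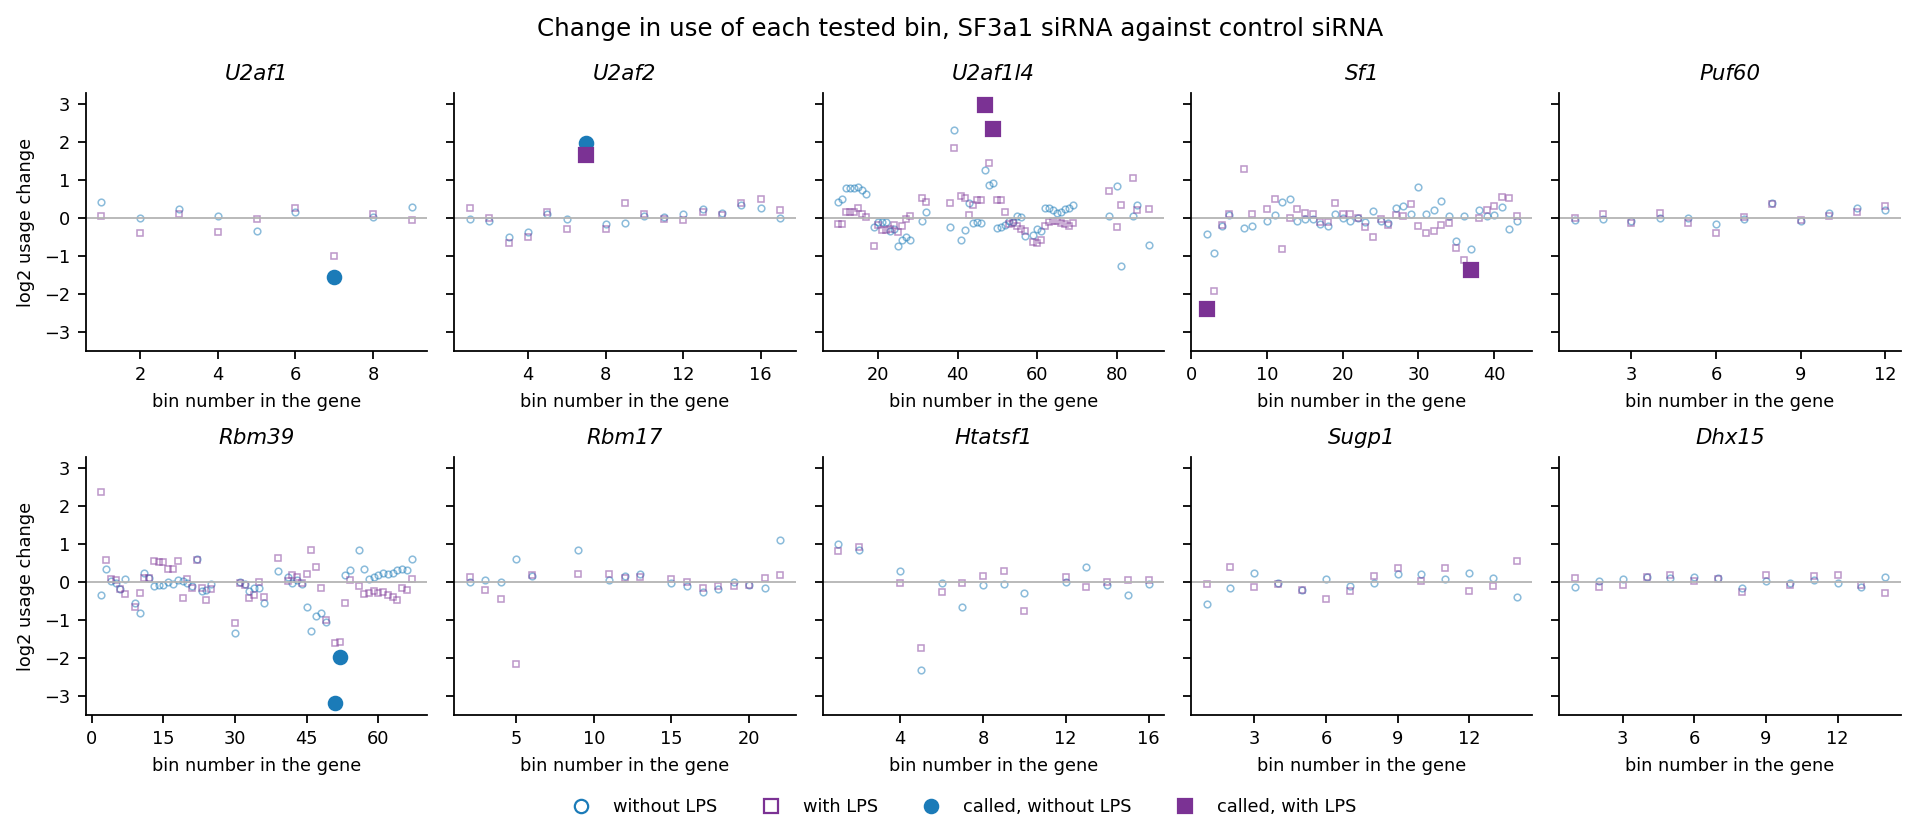
Log2 change in usage with SF3a1 siRNA for each tested bin by its number in the gene (horizontal axis), without LPS (circles) and with LPS (squares), with called bins filled. A single bin stands apart from its neighbours in U2af2 (up to 1.97) and U2af1 (-1.55), and in Rbm39 the adjacent bins 051 (-3.19) and 052 (-1.98) are the lowest.

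Rbm39, whose mRNA rose with SF3a1 siRNA, used an exon of its NMD and retained intron transcripts less without LPS. Bin 052, the exon printed above, took 0.732, 0.634 and 0.602% of all Rbm39 bin counts with control siRNA and 0.208, 0.0989 and 0.208% with SF3a1 siRNA. All 3 SF3a1 siRNA libraries were below all controls, at 3.93-fold lower usage (log2 -1.98 ± 0.39 SE, adjusted p = 0.00319, edgeR). Scaled to the bin counts of the whole library (CPM) in place of the gene, it was lower too, with 2.28, 2.03 and 2.03 with control siRNA and 0.915, 0.566 and 1.16 with SF3a1 siRNA. Without SF3a1 siRNA replicate 2 the log2 was -1.68 and the call was lost (adjusted p = 0.186, edgeR).

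With LPS, bin 052 took 0.366 and 0.610% with control siRNA and 0.133, 0.164 and 0.193% with SF3a1 siRNA. These groups did not overlap either, but the log2 of -1.57 ± 0.42 was not called (adjusted p = 0.167, edgeR). It was called with the replicate block (log2 -1.61, adjusted p = 0.0128), in replicates 2 and 3 alone (log2 -1.77, adjusted p = 0.0698) and in the DEXSeq model (log2 -1.54, adjusted p = 0.0476).

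The neighbouring bin 051 (chr2:156178561-156178879, 319 nt), found in retained intron transcripts of Rbm39, moved with it. It took 0.282, 0.328 and 0.351% with control siRNA and 0.0578, 0.00761 and 0.0415% with SF3a1 siRNA, from counts of 52, 29 and 35 and of 10, 1 and 4. Usage was 9.10-fold lower without overlap (log2 -3.19 ± 0.56, adjusted p = 0.000386, edgeR). It stayed called at log2 -3.79 without SF3a1 siRNA replicate 1 and -2.69 without replicate 2 (adjusted p = 0.00112 and 0.0513, edgeR). With LPS it took 0.0914 and 0.152% with control siRNA and 0.0442, 0.0346 and 0.0332% with SF3a1 siRNA (log2 -1.62 ± 0.63, adjusted p = 0.935, edgeR). The control siRNA libraries with LPS lay between the control siRNA libraries without LPS and all SF3a1 siRNA libraries, though LPS itself was not called (log2 -1.45 ± 0.59, adjusted p = 1.0, edgeR). On the other side, bin 053 (224 nt), also intronic in most transcripts, was at log2 0.19 ± 0.40 without LPS (adjusted p = 1.0, edgeR). Before bin 051 in number, bin 050 (2 nt) had counts of 12, 2 and 4 with control siRNA and 0, 0 and 0 with SF3a1 siRNA, and was tested and called only when every bin with a count was kept (adjusted p = 0.0984, edgeR). With LPS its counts were 1 and 0 with control siRNA and 8, 0 and 0 with SF3a1 siRNA, which overlap, with the highest count on the SF3a1 siRNA side. Bin 049 was at log2 -1.06 without LPS (adjusted p = 1.0, edgeR). Bins 045, 046, 047 and 048 were at log2 -0.67, -1.28, -0.89 and -0.83 without LPS. With LPS these bins were at 0.20, 0.84, 0.38 and -0.16, and none was called in either comparison. Bin 056 (26 nt) took 0.727, 0.905 and 0.441% with control siRNA and 1.75, 0.799 and 1.24% with SF3a1 siRNA, which overlap. It was called with the replicate block (log2 0.87, adjusted p = 0.0336) and not without it (log2 0.83 ± 0.30, adjusted p = 0.848, edgeR). With LPS it was at log2 -0.12 ± 0.34 (adjusted p = 1.0, edgeR). The interaction was not called for bin 051 or 052 (log2 1.57 ± 0.85 and 0.40 ± 0.57, both adjusted p = 1.0, edgeR).

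**Figure D4:**
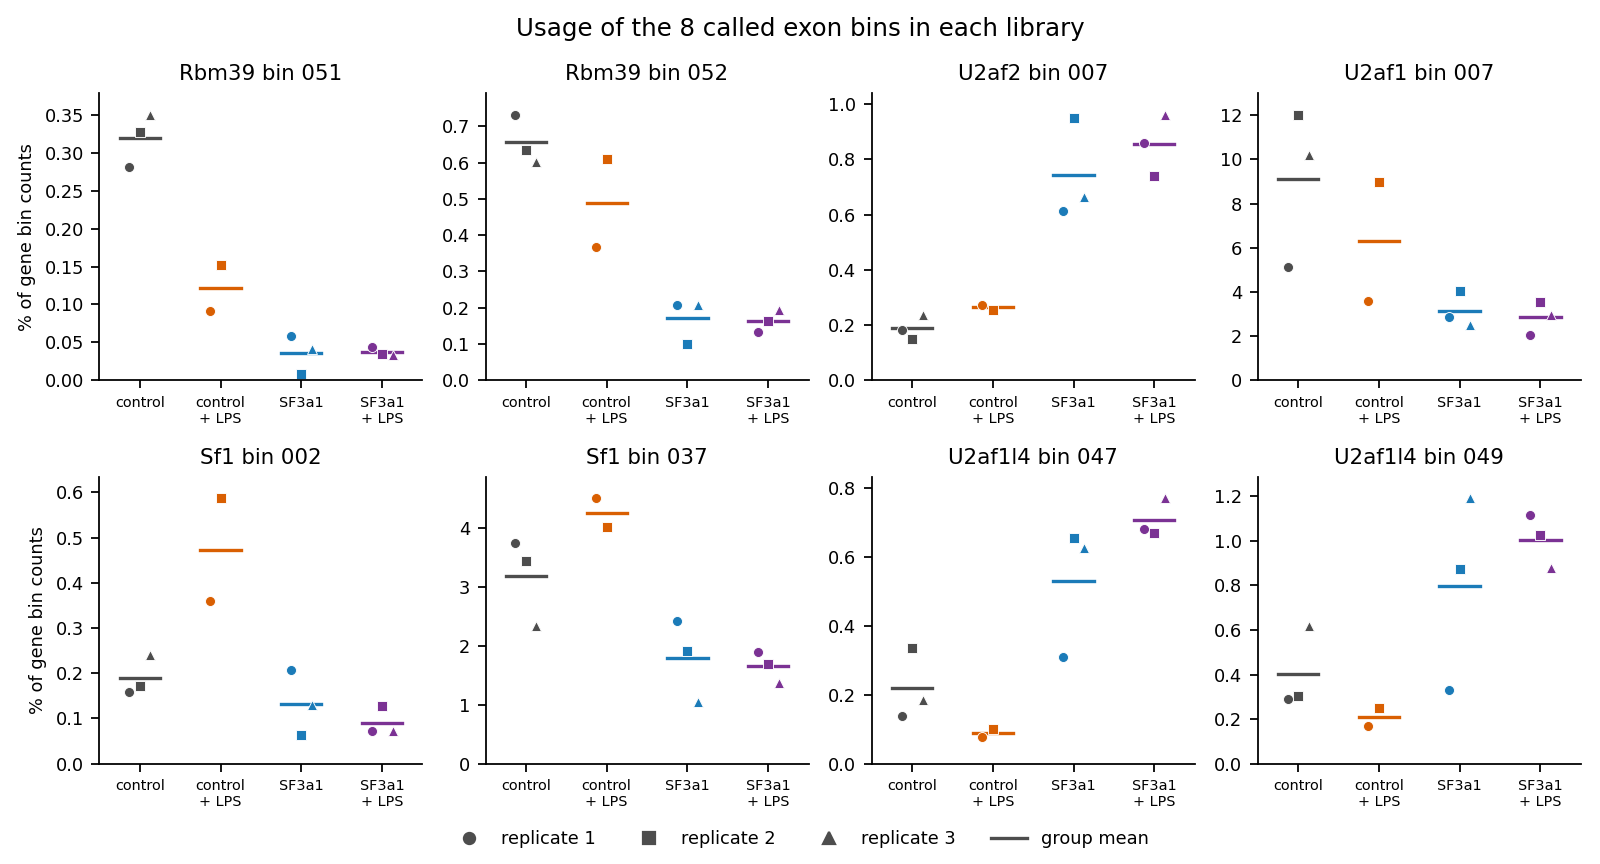
Usage of the 8 called bins in each library (percent of all bin counts of its gene, linear axes from 0), with replicates as symbols and the group mean as a bar, and with 2 libraries for control siRNA + LPS. For the U2af1l4 bins the percent is of the unit shared with Gm49396. U2af2 bin 007 is at 0.614% or more in all SF3a1 siRNA libraries and at 0.273% or less in all control siRNA libraries, and Rbm39 bins 051 and 052 are lower in all SF3a1 siRNA libraries.

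U2af2 used bin 007, which may be the rare exon with the stop codon at its junction, more with SF3a1 siRNA. It took 0.183, 0.149 and 0.235% with control siRNA and 0.614, 0.950 and 0.664% with SF3a1 siRNA. With LPS it took 0.273 and 0.254% with control siRNA and 0.860, 0.740 and 0.962% with SF3a1 siRNA. The siRNA groups were apart in both conditions, by 3.91-fold without LPS (log2 1.97 ± 0.34 SE, adjusted p = 0.000664, edgeR) and 3.12-fold with LPS (log2 1.64 ± 0.38, adjusted p = 0.0640, edgeR). The bins on both sides, which are far more abundant, had log2 usage changes of -0.03 and -0.15 without LPS and -0.28 and -0.28 with LPS, all with adjusted p = 1.0 (edgeR). The call without LPS held in all 18 alternatives. With LPS it was lost without control siRNA + LPS replicate 1 (adjusted p = 0.822), control siRNA + LPS replicate 2 (0.331) or SF3a1 siRNA + LPS replicate 3 (0.265), in replicates 2 and 3 alone (0.137) and with every bin that has a count (0.104), while the log2 stayed at 1.56 to 1.74.

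U2af1 used the second numbered of its paired exons less with SF3a1 siRNA. Bin 007 took 5.11, 12.03 and 10.2% with control siRNA and 2.87, 4.02 and 2.51% with SF3a1 siRNA, and bin 006 took 19.2, 16.6 and 17.8% and 19.5, 17.9 and 22.0%. Bin 007 was lower without overlap (2.93-fold, log2 -1.55 ± 0.39 SE, adjusted p = 0.0393, edgeR), while bin 006 overlapped (log2 0.16 ± 0.31, adjusted p = 1.0, edgeR). With LPS, bin 007 took 3.60 and 8.99% with control siRNA and 2.05, 3.52 and 2.95% with SF3a1 siRNA, which did not overlap and were not called (log2 -1.01 ± 0.43, adjusted p = 0.925, edgeR). Without control siRNA replicate 2 the first call was lost (log2 -1.32, adjusted p = 0.455, edgeR), as it was without control siRNA replicate 3 (0.316) and without SF3a1 siRNA replicate 1 (0.262) or 3 (0.393). Neither other tool called it, with adjusted p = 0.130 in the DEXSeq model (log2 -1.57) and 0.166 in limma (log2 -1.49).

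Of the counts in both exons of the U2af1 pair, bin 007 had 21.0, 42.0 and 36.5% with control siRNA and 12.8, 18.4 and 10.2% with SF3a1 siRNA. With LPS it had 16.0 and 33.6% with control siRNA and 8.47, 12.97 and 12.3% with SF3a1 siRNA. Every SF3a1 siRNA library was below every control siRNA library of the same LPS condition, and replicate 1 was the lowest of its group in both control groups. The means were 33.1 ± 10.8% and 13.8 ± 4.16% without LPS and 24.8 ± 12.5% and 11.2 ± 2.42% with LPS (SD, n = 3, 3, 2 and 3). An exact two-sided permutation test gave p = 0.1 for both SF3a1 comparisons, the smallest p that 3 against 3 or 2 against 3 libraries allow. Groups without overlap always give that smallest p, so it adds nothing to the separation already described. The same exact permutation test gave p = 0.5 for LPS with either siRNA. Within same-numbered libraries, SF3a1 siRNA had the lower share in 3 of 3 pairs without LPS (mean difference -19.3 percentage points) and in 2 of 2 pairs with LPS (-14.0). An exact two-sided paired permutation test gave p = 0.25 and 0.5, the smallest that 3 and 2 pairs allow, and p = 0.0625, the smallest for 5 pairs, over both conditions. LPS had the lower share in 2 of 2 pairs with control siRNA (-6.73) and in 2 of 3 with SF3a1 siRNA (-2.58), with p = 0.5 for each and 0.125 over the 5 pairs in the same exact paired test. The tests over 5 pairs were added after the values were seen, and pairs with the same number share that number's deviation. All tests of this share reuse the bin 007 counts of the usage test, so they are not separate support for that call.

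**Figure D5:**
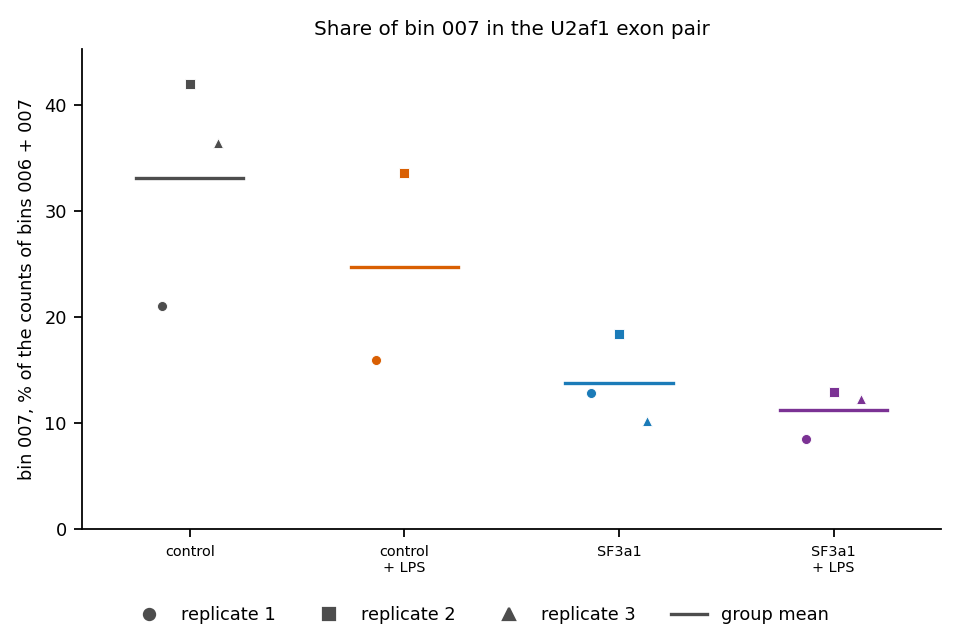
Bin 007 as a percent of the counts of both U2af1 exons (bins 006 and 007) in each library, with the group mean as a bar. The SF3a1 siRNA libraries lie at 8.47 to 18.4%, and the control siRNA libraries spread from 16.0 to 42.0%, with replicate 1 lowest in both control groups.

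Sf1 had 2 bins called with LPS. Bin 037 (chr19:6375863-6376295, 433 nt) is kept in 2 transcripts, 1 of them annotated as an NMD target. It took 4.52 and 4.02% with control siRNA + LPS and 1.90, 1.69 and 1.37% with SF3a1 siRNA + LPS. Usage was 2.57-fold lower without overlap (log2 -1.36 ± 0.37 SE, adjusted p = 0.0713, edgeR). Without LPS it took 3.76, 3.45 and 2.35% with control siRNA and 2.43, 1.92 and 1.05% with SF3a1 siRNA, which overlap (log2 -0.81 ± 0.34, adjusted p = 0.913, edgeR). That difference was called with the replicate block (log2 -0.85, adjusted p = 0.00552) and in replicates 2 and 3 alone (log2 -0.95, adjusted p = 0.0202). Beside bin 037, bin 036 was at log2 -1.10 ± 0.48 with LPS, without overlap and not called (adjusted p = 0.939, edgeR). On the other side, bin 038 was at log2 0.001 ± 0.37 with LPS, with overlap. Without LPS bins 036 and 038 were at log2 0.04 and 0.21.

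The other Sf1 bin, 002 (chr19:6363719-6363809, 91 nt), lies in the noncoding first exons of 2 coding transcripts. It took 0.360 and 0.587% with control siRNA + LPS and 0.0722, 0.128 and 0.0726% with SF3a1 siRNA + LPS, 5.23-fold lower without overlap (log2 -2.39 ± 0.60, adjusted p = 0.0336, edgeR). Without LPS the values were 0.158, 0.172 and 0.241% and 0.207, 0.0626 and 0.130%, which overlap (log2 -0.42 ± 0.55, adjusted p = 1.0, edgeR). The difference between these SF3a1 effects was not called (log2 -1.97 ± 0.82, adjusted p = 1.0, edgeR interaction). Bin 003 beside it was at log2 -1.92 ± 0.56 with LPS (adjusted p = 0.122, edgeR) and was called with the replicate block (log2 -1.82, adjusted p = 0.0151). Both Sf1 calls were lost without control siRNA + LPS replicate 1 (adjusted p = 0.164 for bin 002 and 0.798 for bin 037) or replicate 2 (0.387 and 0.187), or without SF3a1 siRNA + LPS replicate 3 (0.230 and 0.475). Bin 002 was also lost without SF3a1 siRNA + LPS replicate 1 (0.123) and in limma (0.163). Bin 037 was also lost without SF3a1 siRNA + LPS replicate 2 (0.271), with 1 dispersion per gene (0.104), and without control siRNA replicate 2 (0.123) or SF3a1 siRNA replicate 2 (0.103) or 3 (0.111), which enter only the spread.

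U2af1l4 used 2 bins of its NMD and retained intron transcripts more with SF3a1 siRNA + LPS. Its bins are counted in a unit with the overlapping gene Gm49396, so reads of both cannot be separated there. Bin 047 (chr7:30564302-30564355, 54 nt, plus strand) is the first of them. It took 0.0779 and 0.1003% with control siRNA + LPS and 0.682, 0.670 and 0.771% with SF3a1 siRNA + LPS, 7.83-fold higher without overlap (log2 2.97 ± 0.67 SE, adjusted p = 0.0418, edgeR). Bin 049 (chr7:30564395-30564473, 79 nt) rose beside it, from 0.169 and 0.251% to 1.11, 1.03 and 0.876% (5.02-fold, log2 2.33 ± 0.55, adjusted p = 0.0653, edgeR). Bin 048 between them had log2 1.45 ± 0.61 (adjusted p = 1.0, edgeR), and the flanking bins 046 and 050, in nearly all transcripts, had 0.47 and 0.48.

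Without LPS, bin 047 of U2af1l4 took 0.138, 0.336 and 0.185% with control siRNA and 0.309, 0.655 and 0.627% with SF3a1 siRNA. These overlap at 1 library, and the log2 of 1.27 ± 0.53 was not called (adjusted p = 1.0, edgeR). Bin 049 without LPS took 0.288, 0.302 and 0.617% with control siRNA and 0.331, 0.873 and 1.19% with SF3a1 siRNA. These overlap too, and the log2 of 0.91 ± 0.46 was not called (edgeR). In replicates 2 and 3 alone neither bin was called with LPS (log2 2.79 and 1.92, adjusted p = 0.366 and 0.562, edgeR), and control siRNA + LPS is then a single library. Without control siRNA + LPS replicate 1 the adjusted p was 1.0 for both bins, and both calls were also lost without control siRNA + LPS replicate 2 (0.179 and 0.194) or SF3a1 siRNA + LPS replicate 3 (0.138 and 0.132). Bin 049 was lost without SF3a1 siRNA + LPS replicate 1 (0.153) or 2 (0.160) and with every bin that has a count (0.102) as well. Further up the gene is bin 039 (62 nt, retained intron transcripts). Without LPS it took 0.0752, 0.0672 and 0.0926% with control siRNA and 0.287, 0.600 and 0.376% with SF3a1 siRNA, without overlap. It was called with the replicate block (log2 2.29, adjusted p = 0.0766, edgeR), with 1 dispersion per gene (0.0244, edgeR) and in the DEXSeq model (0.0317). Without these settings it was not called (log2 2.31, adjusted p = 0.243, edgeR). With LPS it had log2 1.84 ± 0.78 and was not called (edgeR).

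Htatsf1 bin 005, a retained intron segment of 1299 nt, had counts of 19, 21 and 21 with control siRNA and 0, 5 and 2 with SF3a1 siRNA. The groups did not overlap. The change was called with the replicate block (log2 -2.60, adjusted p = 0.0276, edgeR) and with 1 dispersion per gene (log2 -2.37, adjusted p = 0.0562, edgeR). Without these settings it was not called (log2 -2.32 ± 0.76, adjusted p = 0.301, edgeR). With LPS its counts of 5 and 14 with control siRNA and 0, 4 and 8 with SF3a1 siRNA gave usage that overlapped, and it was not called with the block (adjusted p = 0.483) or without it (log2 -1.72 ± 0.82, adjusted p = 1.0, edgeR). LPS changed the use of 0 of 249 bins with control siRNA in edgeR, against 0.0801% of all bins, and of 0 with SF3a1 siRNA, against 0.0254%. At an unadjusted p under 0.05 these counts were 6 and 1. The test of a difference in the SF3a1 effect with LPS called 0 of these bins (4 at an unadjusted p under 0.05), against 0.00% of all bins, and the other tools called 0 of them too. In whole cultures, fewer cells that use an exon and less use in each cell cannot be told apart.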

How the data were processed

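The authors mapped Ion Proton reads of at least 30 nt to mm10 with GSNAP, kept unique hits, and deposited raw gene counts (HTSeq, intersection-nonempty mode) and raw exon bin counts (DEXSeq's counting script), in which a read can count in several bins. Use of strand is not given in the sources used here, so overlapping and antisense genes, and paralogs, are uncertain. Reads in no gene (17.8 to 27.2% of a library, highest in SF3a1 siRNA replicate 1) were left out. Symbols matched 36345 of 38215 IDs. Bin positions were rebuilt from GENCODE vM21.

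Gene counts of all 12 libraries were fitted with edgeR 4.0.16 (TMM, filterByExpr, quasi-likelihood test), and bin counts of 11 libraries with its diffSpliceDGE, in genes with at least 2 kept bins, in R 4.3.3. DESeq2 1.42.0, the DEXSeq model fitted with it, and limma 3.58.1 were alternatives, as were another scaling, no filter, 1 dispersion per gene, leaving out each library and a replicate block. Replicates 2 and 3 alone were added after seeing the data. The methods were tested on simulated data, where false calls stayed near or under the nominal rate for genes and were well above it for bins. Same-numbered libraries deviated together (r of 0.137 to 0.575 over all 18 pairs, median 0.332, against -0.499 to 0.321 and median -0.295 over 36 other pairs). Deviations were taken from means of 3 libraries, which pushes the other pairs toward negative values. Other pairs with a replicate 1 library were all negative. Pairs of replicate 2 with replicate 3 were all positive (0.04 to 0.321) and overlapped the same-numbered pairs. The numbers thus set replicate 1 apart, and pair replicates 2 and 3 less surely. The series calls them biological replicates, and no 2 agreed within sampling noise (chi-square per degree of freedom of at least 9.39).

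The factors and gene lists were chosen with earlier results of these data known. All 10 factors are named. So are their bins called in a comparison (at most 4 each), with some of their neighbours. Up to 4 called genes per direction of the early spliceosome list are named too, as are the 2 genes most alike in log2(CPM + 1). Bins called only under an alternative were named after their values were seen.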

Additional observations from a re-analysis of the deposited data

How the results depend on the processing

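The 13 called values kept their direction in all 234 values under alternatives, and 184 stayed called. In genes with LPS and control siRNA, 0 factors were called with DESeq2, with RLE scaling, with no filter or with only the groups compared. Over all genes these called 4984 of 18082, 4722 of 14983, 4727 of 28638 and 4222 of 14428. SF3a1 siRNA called 2 without LPS with the replicate block, and 1 with LPS with no filter or only the groups compared. With LPS, no filter called 5445 of 28638 genes, and only the groups compared called 4468 of 14260. In bins, LPS with control siRNA called 1 (Rbm39 bin 030) with 1 dispersion per gene. SF3a1 siRNA without LPS called 8 with the replicate block. With LPS it called 3 with every bin that has a count, 3 in replicates 2 and 3, and 0 at an adjusted p of 0.01. Leaving out 1 library gave 0 to 1, 0 to 0, 1 to 1 and 1 to 3 called factors (LPS with control siRNA, LPS with SF3a1 siRNA, SF3a1 siRNA without and with LPS), and 0 to 0, 0 to 0, 3 to 4 and 0 to 6 called bins. The interaction stayed at 0. The 0 bins arose without control siRNA + LPS replicate 1 or 2 or SF3a1 siRNA + LPS replicate 3. A lone library left in a group is assumed to vary like the others. The cause of these changes was not tested. The block over all features raised called genes with SF3a1 siRNA to 7053 and 7625 (from 5069 and 5818 of 14983) and called bins to 2113 and 1793 (from 961 and 756), and beyond the values given in the report it changed no other call. Usage of bins under 1% of a gene rests on few counts, down to 0 in a library, and with 2 libraries of control siRNA + LPS the bin calls with LPS are the least firm.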
